A study of Rattus norvegicus with 4 samples.

Results

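The 7 genes below, which set whether a neuron can make, package or take up GABA, glutamate or glycine, were followed across neurons of the rat ventral tegmental area (VTA). They were chosen by symbol from the 32883 genes of the deposited matrices, and all 7 were found: the vesicular glutamate transporters Slc17a6 (VGLUT2), Slc17a7 (VGLUT1) and Slc17a8 (VGLUT3), the vesicular GABA and glycine transporter Slc32a1 (VGAT), the glutamate decarboxylases Gad1 (GAD67) and Gad2 (GAD65), and the plasma membrane glycine transporter Slc6a5 (GLYT2). The data are single-nucleus RNA counts, as unique molecular identifiers (UMIs), from the microdissected and frozen VTA of experimentally naive Sprague-Dawley rats aged 90 to 120 days. There were 2 groups, female and male, with 2 libraries each, and every library combined tissue of 3 rats. The nuclei were stained with 7-AAD and sorted before capture. Because each library pools 3 animals, the spread between the 2 libraries of a sex is not the spread between animals. Values per library are given in the order female 1, female 2, male 1 and male 2.

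A neuron that releases GABA makes it from glutamate with the 2 glutamate decarboxylases and loads it into synaptic vesicles with Slc32a1, which also loads glycine. A neuron that releases glutamate needs one of the vesicular glutamate transporters, since the amino acid itself is present in every cell. The VTA is best known for its dopamine neurons, and it also holds GABA neurons, glutamate neurons and cells that combine these transmitters.

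The stretch of 250 bases before the annotated start is shown for Gad1, Gad2 and Slc17a6, since the ratio of the first pair to each other and the separation of both from the third carry the results below. RefSeq promoters on the GRCr8 build were matched for 7 of 7 genes, whereas the counts were made on rn6, so no position is carried over to the counts. All 3 lie on the plus strand, Gad1 at chr3:75777202-75777451, Gad2 at chr17:89671468-89671717 and Slc17a6 at chr1:110348197-110348446. Capitals mark matches, on either strand, of 3 motifs: GATAA (GATA factors), TAATTA (LIM homeodomain factors such as Lmx1a) and the E-box CANNTG (many basic helix-loop-helix factors). No pair of these matches overlaps in the sequences shown.

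Gad1 upstream: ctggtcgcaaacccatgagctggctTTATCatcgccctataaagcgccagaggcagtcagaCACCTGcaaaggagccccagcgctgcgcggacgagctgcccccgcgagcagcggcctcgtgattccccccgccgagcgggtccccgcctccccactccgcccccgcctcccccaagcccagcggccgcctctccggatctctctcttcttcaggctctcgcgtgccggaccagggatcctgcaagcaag
Gad2 upstream: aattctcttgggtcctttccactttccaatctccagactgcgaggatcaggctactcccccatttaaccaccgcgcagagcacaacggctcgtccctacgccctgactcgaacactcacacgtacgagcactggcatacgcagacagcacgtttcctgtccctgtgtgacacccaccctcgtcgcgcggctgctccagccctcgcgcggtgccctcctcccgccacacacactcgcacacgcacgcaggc
Slc17a6 upstream: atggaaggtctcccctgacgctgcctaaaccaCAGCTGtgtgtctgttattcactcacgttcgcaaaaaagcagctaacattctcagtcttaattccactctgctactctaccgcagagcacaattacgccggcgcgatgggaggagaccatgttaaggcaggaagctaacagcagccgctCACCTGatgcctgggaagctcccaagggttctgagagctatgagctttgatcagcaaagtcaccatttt

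Within the window of 300 bases (250 before the start and 50 after it), Gad1 held 1 GATAA match, which reads TTATC on the strand shown, and 1 E-box, while Gad2 and Slc32a1 held no match to any of the 3 motifs. Slc17a6, Slc17a7 and Slc17a8 each held 2 E-boxes and no other match. Slc6a5 was the only member with a TAATTA match, of which it had 1, together with 1 E-box. Of 33469 promoters of the same length, 26.5% held GATAA, 5.36% held TAATTA and 72.1% held the E-box. The G and C content of the window was 73.7% for Slc32a1, 67.7% for Gad1 and 63.7% for Gad2, against 49% for Slc17a6 and a median of 51.7% over all promoters. A match is a string of letters and does not show that a factor binds there.

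The 4 libraries held 21606 nuclei, from 3628 to 6955 each, with 19714338 to 25824289 UMIs per library and a median of 2415 to 3925 UMIs per nucleus. Pairs of libraries shared 4 to 9 barcodes. After the filters, 20620 nuclei remained, of which 14488 had at least 2000 UMIs. Neurons were taken as nuclei of at least 2000 UMIs with an Rbfox3 UMI (the Rbfox3 set, 817 nuclei, 173, 170, 232 and 242 per library, median 8454 UMIs), Rbfox3 encoding the neuronal nuclear protein NeuN. Rbfox3 was found in 15.1% of 4519 nuclei that carried at least 10 UMIs of the synaptic genes Snap25 and Syt1 and fewer than 5 of the oligodendrocyte genes Mog and Mobp. A second set of 3836 nuclei was therefore taken after the data had been seen, with that synaptic threshold and no Rbfox3 UMI (the synaptic set, median 7301 UMIs). It shares no nucleus with the Rbfox3 set but comes from the same 4 libraries. The summed level of 5 oligodendrocyte markers was 273 to 756 CPM (counts scaled to the summed UMIs of the nuclei) in the Rbfox3 set, 220.0 to 328 CPM in the synaptic set and 24442 to 39985 CPM in 5517 oligodendrocytes, which had at least 5 Mog and Mobp UMIs, no Rbfox3 UMI and a median of 3039 UMIs.

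All 7 genes were found more often in neurons than in oligodendrocytes, which should lack them and serve as the background. After each nucleus was thinned to 2000 UMIs, Slc17a6 was found in 24.6% of the Rbfox3 set, 21.5% of the synaptic set and 1.14% of oligodendrocytes. The same shares were 16.5%, 20.9% and 1.61% for Gad2, 15.2%, 19.2% and 0.845% for Gad1, and 12.1%, 17.2% and 0.755% for Slc32a1. The other vesicular glutamate transporters and the glycine transporter were rare. In the same order of cells, the share was 1.88%, 1.12% and 0.14% for Slc17a8, 0.646%, 0.405% and 0.0096% for Slc17a7, and 0.625%, 0.929% and 0.0409% for Slc6a5. Each of the 7 shares was above that of oligodendrocytes in 4 of 4 libraries in both sets (exact sign-flip permutation test, two-sided, p = 0.125, the smallest that 4 libraries allow).

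On summed counts, tested with edgeR's quasi-likelihood test with the library as a block and Benjamini-Hochberg adjustment over all genes, 5 of 5 tested members were higher in the Rbfox3 set than in oligodendrocytes and 6 of 6 in the synaptic set. Of all genes tested, 37.6% and 41.4% were called higher in the 2 sets, and 74.2% and 78.7% in either direction. The members' log2 fold changes ran from 3.48 for Gad2 to 4.30 for Slc17a8 in the Rbfox3 set, and from 3.19 for Slc17a8 to 4.27 for Gad1 and Slc32a1 in the synaptic set, with medians of 4.00 and 3.92 against medians of -0.01 and 0.05 over all genes. Slc17a7 had too few UMIs for the test in both sets (36 and 84 UMIs), and so had Slc6a5 in the Rbfox3 set (27 UMIs). In all Rbfox3 neurons the level of Slc17a6 was 174, 116, 202 and 176 CPM and that of Gad2 was 139.5, 215, 160.4 and 131 CPM. Female 2 had the lowest Slc17a6 and the highest Gad2 of the 4 libraries in that set. The counts are of transcript 3′ ends, which depend on each gene's annotation, so levels are compared between cells and not between genes.

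The rare members were carried by few nuclei. Among Rbfox3 neurons, 36 Slc17a7 UMIs came from 9 nuclei, and one nucleus held 14 of them. The 141 Slc17a8 UMIs came from 36 nuclei, with 71.6% of them in 10 nuclei. Of the synaptic nuclei, 34 carried Slc17a7, 112 carried Slc17a8 and 90 carried Slc6a5. Slc17a6, by contrast, was spread over 420 and 1703 nuclei of the 2 sets, and its 10 richest nuclei held 9.38% and 3.02% of the UMIs.

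The neurons were then split by genes taken to mark VTA populations, and the members were compared between each split and the other neurons of the same set. These genes were chosen with earlier results of these data known, so the gates are not independent of the data tested. A nucleus entered the dopamine gate with at least 2 UMIs of Th (tyrosine hydroxylase) and Slc6a3 (the dopamine transporter), and the gates named Slc26a7, Gata3, Lum, C1ql1, Lmx1a and Sim1 with at least 1 UMI of that gene. Gata3, Lmx1a and Sim1 encode transcription factors, Slc26a7 an anion transporter, Lum a proteoglycan of the extracellular matrix and C1ql1 a secreted C1q-like protein. The 7 gates overlap, so they do not give 7 independent comparisons. They held 66, 52, 58, 21, 164, 235 and 111 nuclei in that order in the Rbfox3 set, and in the synaptic set 482, 242, 255, 153, 655, 1044 and 424. To keep groups apart, 9 exclusive groups were also formed: Slc26a7 first, then dopamine, then nuclei with exactly one of the other 5 genes, with several of them, or with none.

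**Figure D1:**
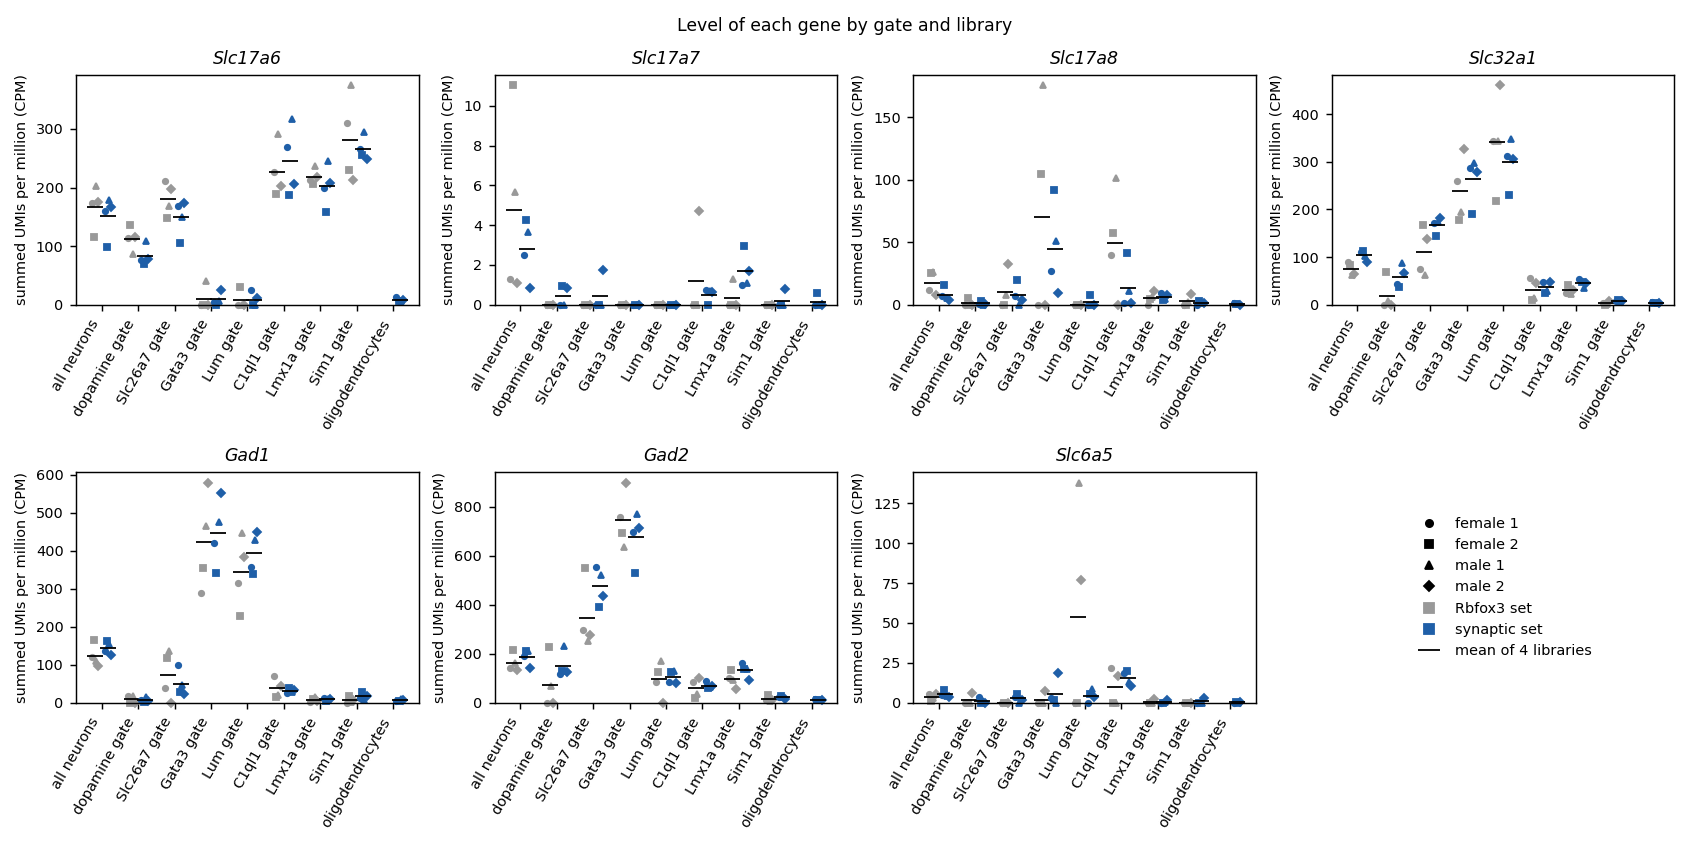
Level of each of the 7 genes in CPM (vertical axis, separate scale in each panel) by gate (horizontal axis), in the Rbfox3 set (grey) and the synaptic set (blue); each marker is 1 library and each bar the mean of 4 libraries. In the synaptic set Gad2 sat between 393 and 553 CPM in the Slc26a7 gate and Gad1 between 22.6 and 97.8 CPM there, while in the Lum gate Gad1 was at 338 CPM or above in every library.

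Slc17a6 was high in the C1ql1, Lmx1a and Sim1 gates, lower in the dopamine gate and near the oligodendrocyte level in the Gata3 and Lum gates. Its level in the Sim1 gate of the synaptic set was 265, 255, 294 and 249 CPM, against 142, 91.6, 164 and 152 CPM in the other neurons (log2 fold change 0.97 ± 0.11 (SE), adjusted p = 8.57e-05 with edgeR). All 4 Sim1-gate values lay above all 4 values of the rest. The C1ql1 gate gave a log2 fold change of 0.90 ± 0.10 (SE, adjusted p = 8.78e-07) and the Lmx1a gate 0.71 ± 0.09 (SE, adjusted p = 2.27e-05). The same 3 gates of the Rbfox3 set were higher by 0.94, 0.58 and 0.65 on the log2 scale for Sim1, C1ql1 and Lmx1a (edgeR adjusted p = 0.00269, 0.00752 and 0.00384). The call in the Sim1 gate was lost without male 1 (adjusted p = 0.0976), and that in the C1ql1 gate without female 1 (0.0544) or male 1 (0.0655). With 2 Rbfox3 UMIs required none of these 3 calls held and the difference in the Lmx1a gate turned to -0.18, and the C1ql1 and Lmx1a calls were also lost without the library block.

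In the Gata3 gate Slc17a6 stood at 5.34, 0, 6.61 and 25.5 CPM in the synaptic set, against 163 ± 35.1 CPM (SD, n = 4) in the other neurons (log2 fold change -4.38 ± 0.27 (SE), adjusted p = 5.51e-10 with edgeR). In the Lum gate it was 24.9, 0, 0 and 11.1 CPM (log2 fold change -4.19 ± 0.31 (SE), adjusted p = 3.38e-17 with edgeR). These levels are of the size seen in oligodendrocytes, 8.44 ± 3.42 CPM (SD, n = 4). Both gates were also lower in the Rbfox3 set, by -3.72 and -3.33 on the log2 scale (edgeR adjusted p = 4.69e-05 and 3.16e-05), with 10 and 3 UMIs in the gates. In the dopamine gate of the synaptic set it was 77.1, 69.2, 109.5 and 78.2 CPM against 174, 105, 189.5 and 180.5 CPM in the rest (log2 fold change -0.91 ± 0.10 (SE), adjusted p = 1.04e-06 with edgeR). The gate was the lower of the pair in 4 of 4 libraries, and the Rbfox3 set gave -0.61 ± 0.22 (SE), which was not called (edgeR adjusted p = 0.115) and was called without female 2 (adjusted p = 0.0121). In the Slc26a7 gate Slc17a6 did not pass the test, at 149 ± 31.2 CPM against 151 ± 36.1 CPM (SD, n = 4; edgeR adjusted p = 0.921).

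Over the 9 exclusive groups of the synaptic set, Slc17a6 was ordered as follows. The nuclei with Lmx1a alone, several genes, C1ql1 alone and Sim1 alone had means of 269, 259, 258 and 249 CPM and overlapped among themselves. The Slc26a7 group, the group with none of the genes and the dopamine group without Slc26a7 followed at 149, 107 and 81.2 CPM, each overlapping the next. The C1ql1 group, from 168 to 340.3 CPM, overlapped the Slc26a7 group, from 105 to 174 CPM, and the other 3 high groups lay above it in every library. The Lum and Gata3 groups were lowest, at 8.25 and 6.75 CPM. In the Rbfox3 set the C1ql1 group was not among the high groups. It had a mean of 165 CPM, from 98.6 to 221 CPM. It overlapped the Slc26a7 group (181 CPM) and the group with none of the genes (134 CPM). The Sim1, several and Lmx1a groups had 279, 243 and 238 CPM there.

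Slc17a8, whose protein is found in scattered neurons that often use another transmitter, was higher in the Gata3 gate, where Slc17a6 was nearly absent. Its level there was 26.7, 91.7, 50.7 and 9.29 CPM in the synaptic set, against 5.25, 6.6, 2.93 and 3.61 CPM in the other neurons (log2 fold change 3.14 ± 0.33 (SE), adjusted p = 7.32e-07 with edgeR). The gate was higher in 4 of 4 libraries, with a spread of several-fold between them. The Rbfox3 set had 0, 104, 175 and 0 CPM, so 2 of 4 libraries had no UMI (log2 fold change 2.69 ± 0.54 (SE), adjusted p = 0.00869 with edgeR, and 0.251 without male 1).

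Markers of serotonin neurons (Tph2, Fev and Slc6a4) were also found in the Gata3 gate. Their summed level there was 48.1, 23.3, 77.2 and 2.32 CPM in the synaptic set, against 0 to 0.935 CPM in the dopamine gate. They were highest in male 1 and Slc17a8 in female 2. Leaving out the 3 synaptic nuclei of the Gata3 gate with at least 2 such UMIs left Slc17a8 at 43.8 ± 33.7 CPM (SD, n = 4), close to the 44.6 ± 35.7 CPM with them. Among Rbfox3 neurons 2 nuclei of this kind held 35 of the 64 Slc17a8 UMIs of the gate, and without them the level was 0, 87.4, 55.4 and 0 CPM. Nuclei with fewer than 2 such UMIs were kept, and the part of serotonin neurons in the Slc17a8 level was not tested. Slc17a8 was lower in the dopamine gate of the synaptic set (0.907, 2.81, 0 and 0.869 CPM, log2 fold change -2.95 ± 0.47 (SE), adjusted p = 9.57e-05 with edgeR) and in the Sim1 gate (log2 fold change -2.63 ± 0.58 (SE), adjusted p = 0.0117). It had only 5 and 4 UMIs in these gates, of 238 in the set. In the C1ql1 gate it was called higher in the Rbfox3 set (log2 fold change 2.17 ± 0.45 (SE), adjusted p = 0.00713 with edgeR) and not in the synaptic set (1.47, 41.2, 11 and 1.24 CPM, adjusted p = 0.353), and the first call was lost without female 1 (0.103) or male 1 (0.307). In the C1ql1 gate of the Rbfox3 set the serotonin markers summed to 139, 6.73, 6.9 and 0 CPM, highest in female 1. There 2 nuclei with at least 2 such UMIs held 44 of the gate's 74 Slc17a8 UMIs. Without them the gate was at 0, 57.2, 31 and 0 CPM in place of 40.2, 57.2, 101 and 0 CPM, and with single-marker gates at 2 UMIs the difference turned to -0.12 on the log2 scale.

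Slc17a7 could be tested in 1 gate of 1 set, and was not called there (Lmx1a gate of the synaptic set, edgeR adjusted p = 0.231). Nuclei with none of the gate genes carried 65 of its 84 UMIs in the synaptic set and 33 of 36 in the Rbfox3 set. Their level of 5.91 ± 3.83 CPM (SD, n = 4) overlapped that of the Lmx1a group, 4.07 ± 3.82 CPM. The Gata3 and Lum gates had no Slc17a7 UMI in either set.

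Slc32a1, the transporter that fills vesicles with GABA or glycine, was highest in the Lum and Gata3 gates. The Lum gate of the synaptic set had 312, 230.5, 348 and 306 CPM and the other neurons 104, 106, 94 and 83.1 CPM (log2 fold change 1.66 ± 0.12 (SE), adjusted p = 4.29e-17 with edgeR). The Gata3 gate had 287, 191, 298 and 279 CPM (log2 fold change 1.48 ± 0.12 (SE), adjusted p = 1.91e-08 with edgeR). Neither gate overlapped the other neurons in any library, and the Rbfox3 set gave 1.91 and 1.98 on the log2 scale (edgeR adjusted p = 5.02e-06 and 3.32e-05). The Slc26a7 gate of the synaptic set was also higher, at 171, 145, 173 and 182 CPM (log2 fold change 0.82 ± 0.11 (SE), adjusted p = 1.79e-05 with edgeR), while in the Rbfox3 set its 0.60 ± 0.27 (SE) was not called (adjusted p = 0.861).

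Lower levels of Slc32a1 were found in the Sim1, C1ql1, Lmx1a and dopamine gates. The lowest was the Sim1 gate, at 7.5, 9.68, 5.59 and 7.95 CPM in the synaptic set (log2 fold change -3.92 ± 0.17 (SE), adjusted p = 1.93e-08 with edgeR). The dopamine gate stood at 43.5, 38.3, 86.7 and 66 CPM against 121, 127, 104 and 94.1 CPM (log2 fold change -0.87 ± 0.17 (SE), adjusted p = 7.24e-04 with edgeR), and all 4 of its libraries were below the lowest of the rest. The dopamine gate of the Rbfox3 set had 0, 68, 7.16 and 0 CPM (adjusted p = 0.00683 with edgeR, and 0.063 without female 1). Over the exclusive groups of the synaptic set the Lum and Gata3 groups (302 and 284 CPM) overlapped each other and stood above the Slc26a7 group (168 CPM) in every library.

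The 2 glutamate decarboxylases did not keep a fixed ratio to each other. Both were high in the Gata3 gate. Gad2 reached 698, 531, 772 and 713 CPM there in the synaptic set (log2 fold change 2.17 ± 0.12 (SE), adjusted p = 7.05e-11 with edgeR) and Gad1 420.5, 342, 476 and 553 CPM (log2 fold change 1.84 ± 0.12 (SE), adjusted p = 1.38e-09 with edgeR). No library of the gate overlapped the other neurons, whose means were 148 and 122 CPM. The Rbfox3 set gave log2 fold changes of 2.80 and 2.20 (edgeR adjusted p = 4.85e-08 and 3.79e-05).

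In the Slc26a7 gate Gad2 was higher and Gad1 lower than in the other neurons. Gad2 was 553, 393, 524 and 434 CPM in the synaptic set against 161, 192, 187 and 119 CPM (log2 fold change 1.60 ± 0.10 (SE), adjusted p = 2.33e-10 with edgeR). Gad1 was 97.8, 26.8, 47.4 and 22.6 CPM against 139, 175, 163 and 133 CPM (log2 fold change -1.60 ± 0.21 (SE), adjusted p = 2.03e-05 with edgeR). Each gene separated the gate from the rest in all 4 libraries, in opposite directions. For Rbfox3 neurons Gad2 was 298, 550.4, 251 and 277 CPM against 131, 192, 151 and 118 CPM (log2 fold change 1.16 ± 0.17 (SE), adjusted p = 0.00196 with edgeR), and Gad1, at 37.2, 118, 137 and 0 CPM, was not called (log2 fold change -0.65 ± 0.38 (SE), adjusted p = 0.959).

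The Lum gate had the reverse pattern. Gad1 was 358, 338, 428 and 449 CPM in the synaptic set against 129, 152, 147 and 114 CPM (log2 fold change 1.58 ± 0.12 (SE), adjusted p = 1.62e-17 with edgeR), and Gad2 was 83.2, 123, 127 and 81 CPM against 192, 215, 212 and 142 CPM (log2 fold change -0.82 ± 0.14 (SE), adjusted p = 7.73e-06 with edgeR). Every library of the gate lay above the rest for Gad1 and below it for Gad2. The summed oligodendrocyte markers of this gate ran from 215 to 665 CPM, highest in female 1, and their part in either gene was not tested. The gate held 21 nuclei in the Rbfox3 set (5, 10, 3 and 3 per library). There Gad1 had a log2 fold change of 1.17 ± 0.35 (SE, edgeR adjusted p = 0.0201, and 0.215 or 0.372 without female 1 or male 1), and Gad2 was not called (-0.82 ± 0.43 (SE), adjusted p = 0.364).

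Compared directly, the Lum group had less Gad2 than the Gata3 group, while Gad1 and Slc32a1 did not pass the test. Gad2 was 80.7, 113, 140.2 and 82.5 CPM in the Lum group of the synaptic set and 754, 629.6, 843 and 695 CPM in the Gata3 group (log2 fold change -2.70 ± 0.23 (SE), adjusted p = 1.16e-12 with edgeR). Gad1 differed by -0.17 ± 0.20 (SE, adjusted p = 0.659) and Slc32a1 by 0.18 ± 0.21 (SE, adjusted p = 0.647) on the log2 scale, neither of which passed the test. The Rbfox3 set gave -2.97 ± 0.46 (SE, adjusted p = 1.03e-05) for Gad2. In these groups 2 of 6 members were called in the synaptic set (Gad2 and, with 3 against 45 UMIs, Slc17a8 at adjusted p = 0.0455) and 1 of 5 in the Rbfox3 set, where 18.6% and 8.89% of all genes tested were called.

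Within the dopamine gate Gad1 was close to the background while Gad2 was not. In the synaptic set Gad1 was 7.25, 2.81, 13.7 and 3.48 CPM, against 156, 194, 178 and 144 CPM in the other neurons (log2 fold change -4.58 ± 0.19 (SE), adjusted p = 3.11e-12 with edgeR) and 5.97 ± 2.49 CPM (SD, n = 4) in oligodendrocytes. Gad2 was 119, 130.0, 233 and 124 CPM against 199.8, 225, 206 and 143 CPM (log2 fold change -0.32 ± 0.12 (SE), adjusted p = 0.0718, not called by edgeR), and 11.8 ± 3.08 CPM in oligodendrocytes. For Rbfox3 neurons Gad1 gave -3.81 ± 0.42 (SE, edgeR adjusted p = 1.65e-06) and Gad2, at 0, 227, 68 and 0 CPM, was not called (adjusted p = 0.0563, and 4.70e-04 without female 2).

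Most of the Gad2 of dopamine neurons lay in nuclei that also carried Slc26a7. Of the 482 nuclei in the dopamine gate of the synaptic set, 71 had an Slc26a7 UMI, and they held 455 of the gate's 668 Gad2 UMIs and 1 of its 30 Gad1 UMIs. Their Gad2 level was 837, 489, 817 and 569 CPM, their Slc32a1 level 218, 151, 229 and 265 CPM and their Slc17a6 level 131, 81.6, 108 and 86.3 CPM, in 15, 16, 19 and 21 nuclei. The 411 dopamine nuclei without Slc26a7 had 35.4, 67, 83.6 and 45 CPM of Gad2 and 23.3, 18.7, 50.4 and 30.7 CPM of Slc32a1. No library of the first kind overlapped the second for either gene. At 2000 UMIs per nucleus, Gad2 was found in 60.4 ± 10.4% (SD, n = 4) of dopamine nuclei with Slc26a7 and in 5.98 ± 1.82% of those without. The Rbfox3 set held 11 such nuclei, with 58 Gad2 UMIs and no Gad1 UMI.

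Tested as whole groups, the Slc26a7 group stood above the dopamine group in all 3 GABA genes. The Slc26a7 group takes in nuclei inside and outside the dopamine gate. In the synaptic set 108 of its 109 Gad1 UMIs lay in the 171 nuclei outside that gate, and in the Rbfox3 set 50 of 50. Gad2 differed by 3.06 ± 0.20 (SE, adjusted p = 3.49e-15), Gad1 by 2.63 ± 0.47 (SE, 4.96e-05) and Slc32a1 by 2.46 ± 0.25 (SE, 5.45e-10) on the log2 scale in the synaptic set, by edgeR. Slc17a6 was higher too (149 against 81.2 CPM, log2 fold change 0.89 ± 0.18 (SE), adjusted p = 4.28e-04). In total 4 of 6 members were called in the synaptic set, where 12.4% of all genes were, and 3 of 5 in the Rbfox3 set, where 2.53% were. In the Rbfox3 set the Slc26a7 group held 186 Gad2 UMIs and the dopamine group 1, a depth-adjusted count ratio of 192 (95% exact interval 34.1 to 7634, counting error only), and for Slc32a1 60 and 1 UMIs. Gad1 there was called at adjusted p = 0.0409 with edgeR, a call lost without female 1 (0.0673), female 2 (0.167) or male 1 (0.29), and with single-marker gates at 2 UMIs its log2 fold change turned to -4.29.

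The C1ql1, Lmx1a and Sim1 gates were lower than the other neurons in both decarboxylases, least so for Gad2 in the Lmx1a gate. In the Sim1 gate of the synaptic set Gad1 was 13.3, 29, 7.83 and 18.3 CPM (log2 fold change -3.34 ± 0.19 (SE), adjusted p = 4.07e-07 with edgeR) and Gad2 24.2, 29, 21.2 and 15.1 CPM (log2 fold change -3.24 ± 0.13 (SE), adjusted p = 1.17e-08 with edgeR). The Lmx1a gate shared the imbalance of the dopamine gate. It shares 339 nuclei with the dopamine gate and 135 with the Slc26a7 gate. Gad1 was 12.6, 5.46, 10.7 and 9.4 CPM in the Lmx1a gate (log2 fold change -4.40 ± 0.13 (SE), adjusted p = 3.39e-11 with edgeR) and Gad2 164, 137, 138 and 94 CPM (log2 fold change -0.66 ± 0.09 (SE), adjusted p = 4.64e-05 with edgeR). Of the gate's 1266 Gad2 UMIs, 297 lay in the exclusive Lmx1a group, which held 59 Gad1 UMIs. That group had means of 83.9 CPM for Gad2 and 16.7 CPM for Gad1. In the C1ql1 gate the log2 fold changes were -2.44 ± 0.10 for Gad1 and -1.62 ± 0.11 for Gad2 (SE; edgeR adjusted p = 6.65e-13 and 8.89e-10). All 6 of these comparisons were called lower in the Rbfox3 set as well, from -1.06 for Gad2 in the Lmx1a gate to -4.60 for Gad1 in the Sim1 gate on the log2 scale.

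The imbalance is plainest as Gad1's share of the summed Gad1 and Gad2 UMIs, of which only the change between cells is read. The share in the synaptic set was 81.1%, 73.3%, 77.1% and 84.7% in the Lum gate, 37.6%, 39.2%, 38.2% and 43.7% in the Gata3 gate and 15%, 6.38%, 8.31% and 4.94% in the Slc26a7 gate. The 3 gates did not overlap in any library. It was 4.04 ± 1.89% (SD, n = 4) in the dopamine gate, 6.83 ± 2.19% in the Lmx1a gate and 31.6 ± 7.33% in the C1ql1 gate. In the Sim1 gate, whose decarboxylase counts were low, it was 41.8 ± 12.9%. In dopamine nuclei with Slc26a7 it was 0%, 0%, 0.546% and 0%, from 1 Gad1 UMI among 456. The Rbfox3 set gave 78.9 ± 15.2% in the Lum gate, 35.7 ± 6.42% in the Gata3 gate, 16 ± 14.8% in the Slc26a7 gate and 7.16 ± 4.41% in the Lmx1a gate (SD, n = 4). These shares are a description with no test of their own. The gates overlap, and the Lmx1a gate of the synaptic set shares 135 nuclei with the Slc26a7 gate.

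**Figure D2:**
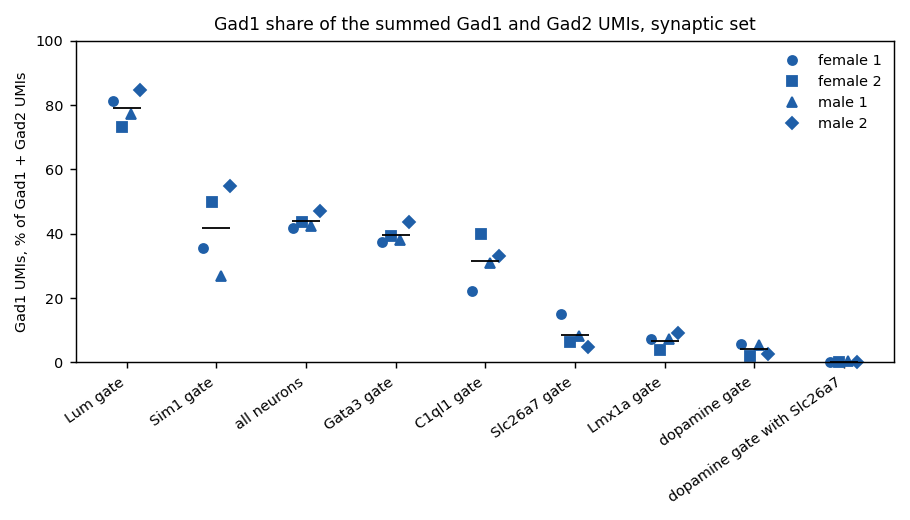
Gad1 UMIs as a percentage of Gad1 plus Gad2 UMIs (vertical axis) by gate (horizontal axis) in the synaptic set; each marker is 1 library and the line the mean of 4. The Lum gate lay at 73.3% or above in every library, the Slc26a7 gate at 15% or below, and dopamine nuclei with Slc26a7 at 0.546% or below.

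Slc6a5, which returns glycine to the terminals of glycine neurons, was concentrated in the C1ql1 gate. Its level there was 18.4, 19.8, 13.1 and 10.5 CPM in the synaptic set against 2.11, 5.11, 2.15 and 2.19 CPM (log2 fold change 2.43 ± 0.26 (SE), adjusted p = 1.25e-06 with edgeR), and the gate held 87 of the 157 UMIs. All 4 libraries of the gate lay above all 4 of the rest. Nuclei with C1ql1 as their only gate gene had 35.5, 56.9, 51.1 and 21.7 CPM from 72 UMIs, and those with Sim1 alone had none, at least 39.5-fold higher when the empty group is set to a floor of 3 UMIs over the group (edgeR adjusted p = 8.78e-07). The C1ql1 gate of the Rbfox3 set had 21.7, 0, 0 and 16.5 CPM from 14 UMIs, so 2 of 4 libraries had none, and the gene was not tested. The summed oligodendrocyte precursor markers Pdgfra and Cspg4 stood at 41.4 to 80.0 CPM in the C1ql1 gate of the synaptic set and at 0 to 9.13 CPM in the dopamine gate. In the Rbfox3 set they were at 55.2 to 232 CPM in the C1ql1 gate and at 10.6 to 49.3 CPM over all neurons. C1ql1 is itself expressed in such precursors, and their part in the result was not tested. Slc6a5 was lower in the Lmx1a gate (log2 fold change -3.42 ± 0.54 (SE), adjusted p = 2.66e-04) and the dopamine gate (log2 fold change -2.30 ± 0.62 (SE), adjusted p = 0.0112) of the synaptic set, by edgeR. These gates held only 6 and 5 of its 157 UMIs, so the size of the change is uncertain.

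Against the Sim1 group the C1ql1 group also had more Slc32a1 (29.9, 34.1, 37.6 and 45.9 against 6.78, 16.7, 0 and 3.09 CPM, log2 fold change 2.96 ± 0.59 (SE), adjusted p = 2.01e-04), Gad1 (log2 fold change 1.64 ± 0.47 (SE), adjusted p = 0.0129) and Gad2 (1.57 ± 0.43 (SE), adjusted p = 0.00791) in the synaptic set, by edgeR. Slc17a6 did not pass the test (340.3, 168, 339 and 184 against 244, 217, 284 and 251 CPM, adjusted p = 0.932). Counting Slc6a5, 4 of 6 members were called in the synaptic set and 3 of 5 in the Rbfox3 set, where 13.1% and 5.48% of all genes were. In the Rbfox3 set the Gad1 and Slc32a1 calls were lost without female 1 (adjusted p = 0.585 and 0.0625), and the Gad1 call also without male 2 (0.0503).

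Counted gate by gate, most testable members differed from the other neurons. Calls in the Rbfox3 set were 2 of 4 members in the dopamine gate (6.53% of all genes tested were called), 1 of 5 in the Slc26a7 gate (0.343%), 5 of 5 in the Gata3 gate (2.34%) and 3 of 4 in the Lum gate (5.00%). The C1ql1, Lmx1a and Sim1 gates followed with 5 of 5 (3.18%), 4 of 5 (6.75%) and 4 of 4 (2.18%). For the synaptic set, in the same order of 7 gates, they were 5 of 6 (21.8%), 3 of 6 (4.83%), 5 of 6 (7.92%), 4 of 6 (17.9%), 5 of 6 (7.97%), 5 of 7 (20.7%) and 5 of 6 (7.99%). The median log2 fold change over the tested members was largest in size in the Sim1 gate, -3.97 and -2.93 in the 2 sets, against 0.00 and -0.02 over all genes tested. In bulk sums of this kind fewer nuclei with a gene and less RNA per nucleus cannot be told apart.

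The transmitter genes were then read nucleus by nucleus, as the share of nuclei with a UMI of both genes of a pair after thinning to 2000 UMIs, and set against the product of the 2 single shares in the same library. The 3 pairs among Slc32a1, Gad1 and Gad2 were found together more often than the product in 4 of 4 libraries. Over all synaptic nuclei Gad1 and Gad2 were together in 8.94 ± 1.6% (SD, n = 4) of nuclei against a product of 4.1%, a ratio of 2.18. The ratios were 2.35 for Slc32a1 and Gad1 and 2.28 for Slc32a1 and Gad2, and in the Rbfox3 set the 3 ratios were 2.74, 3.05 and 2.95 in that order. Slc17a6 was found together with each of these genes less often than the product. Its ratio was 0.0993 with Gad1, 0.245 with Slc32a1 and 0.337 with Gad2 in the synaptic set, and 0.106, 0.136 and 0.246 in the Rbfox3 set. Of 21 pairs, 12 in the synaptic set and 6 in the Rbfox3 set had a product of at least 1 nucleus in every library, a minimum set after the data had been seen. Among these, 5 lay above and 3 below the product in 4 of 4 libraries of the synaptic set, and 3 and 3 in the Rbfox3 set. The direction of the other pairs is not read, since a library without such a nucleus lies below any product. With 4 libraries the exact sign-flip permutation test cannot go below p = 0.125, which adjusted over 21 pairs was 0.219, so no pair can pass 0.05. The nuclei mix several populations, which share their genes, and the ratios describe that mixture.

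**Figure D3:**
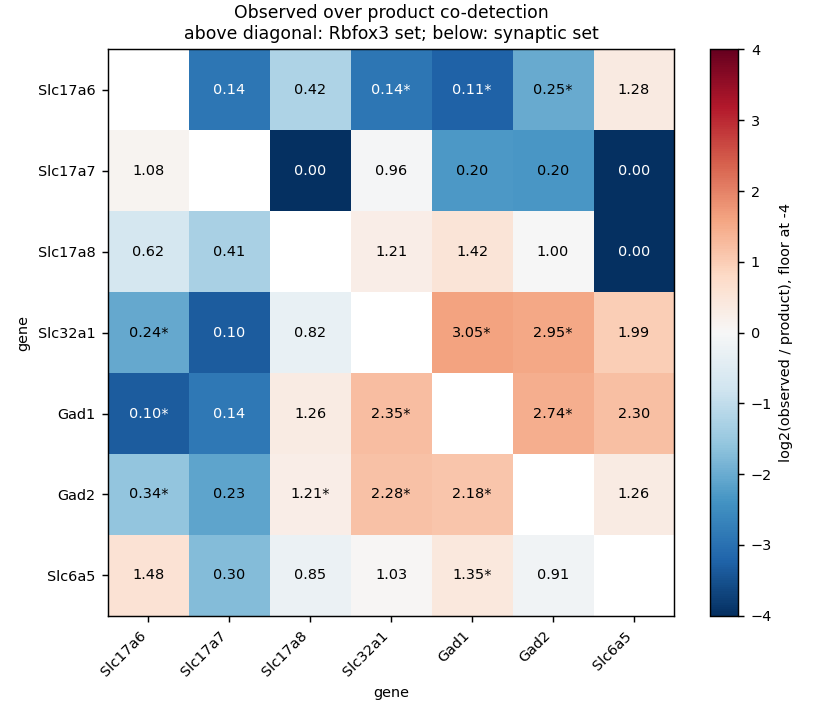
Ratio of the share of nuclei with both genes to the product of the single shares, on a log2 colour scale, for the 21 pairs of members (both axes list the 7 genes); the Rbfox3 set is above the diagonal, the synaptic set below, and a star marks a ratio on the same side of 1 in all 4 libraries with a product of at least 1 nucleus in each. Slc32a1, Gad1 and Gad2 form the block above 1 in both sets, with ratios from 2.18 to 3.05, and Slc17a6 is below 1 with each of them.

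Nuclei with a GABA UMI (Slc32a1, Gad1 or Gad2) and a glutamate UMI (Slc17a6, Slc17a7 or Slc17a8) made up 2.65 ± 0.400% (SD, n = 4) of the synaptic set after thinning, below the product of 8.1% in every library. Among Rbfox3 neurons the share was 2.25 ± 0.988% against 7.37%, and in oligodendrocytes 0.0857%. Counted without thinning, 389 and 84 nuclei of the 2 sets carried both. The Slc26a7 gate stood out, with 14.4%, 7.58%, 11.7% and 12.3% in the synaptic set, a mean of 11.5 ± 2.85% (SD, n = 4) against a product of 13%. All 4 of its libraries were above every library of all neurons pooled. Within this gate Slc17a6 and Gad2 were together in 9.66 ± 2.67% (SD, n = 4) of nuclei, a ratio of 0.967 to the product, whereas the ratio over all synaptic nuclei was 0.337. Dopamine nuclei with Slc26a7 carried both kinds in 13.1 ± 4.48% against a product of 12.4%, and dopamine nuclei without it in 1.59 ± 0.957% against 1.23%. The Slc26a7 gate of the Rbfox3 set had 8.2 ± 6.7% against 11.4%.

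The other gates differed in the same reading. The share with both kinds in the synaptic set was 4.85 ± 1.9% in the Lmx1a gate, 3.79 ± 1.21% in the Gata3 gate, 3.32 ± 1.61% in the dopamine gate and 2.46 ± 0.791% in the C1ql1 gate (SD, n = 4). It was lowest in the Sim1 gate (1.38 ± 0.396%) and the Lum gate (0.401 ± 0.466%). The Lmx1a gate shares 135 nuclei with the Slc26a7 gate, and the dopamine gate 71. Nuclei with none of the gate genes had 1.58 ± 0.196% against a product of 8.19%. Within the C1ql1 gate Slc17a6 and Gad2 had a ratio of 0.396, and within the dopamine gate Slc17a6 and Slc32a1 had a ratio of 1.39, above 1 in 4 of 4 libraries. A UMI can come from free RNA or from a second nucleus in the droplet; barcodes called doublets were removed, and what remains of either was not tested.

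**Figure D4:**
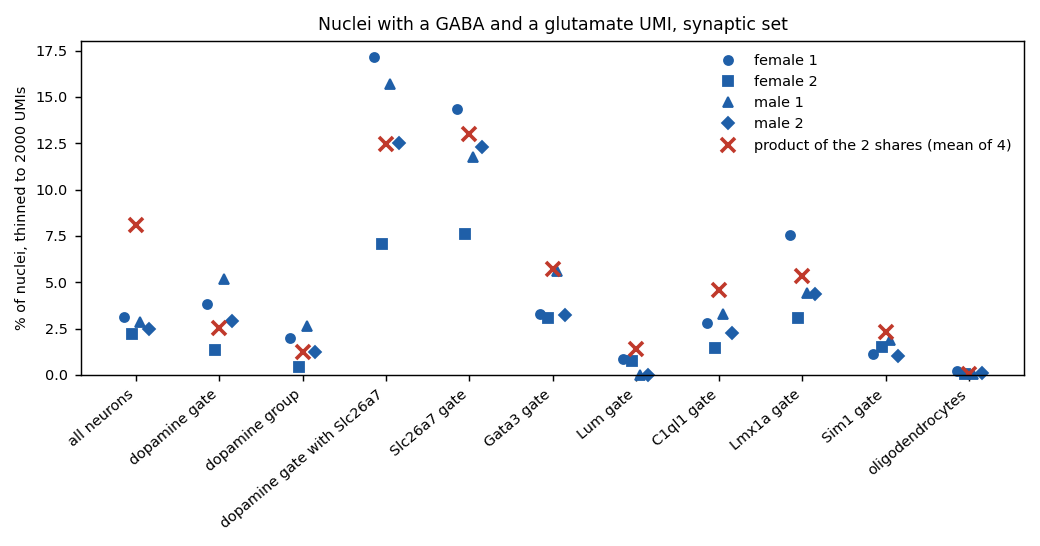
Percentage of nuclei with at least 1 GABA and 1 glutamate UMI after thinning to 2000 UMIs (vertical axis) by gate (horizontal axis) in the synaptic set; each marker is 1 library and the red cross the mean product of the 2 single shares. The Slc26a7 gate ran from 7.58% to 14.4%, near its cross, while all neurons together lay at 3.1% or below, under theirs.

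A list of 26 further genes of transmitter synthesis, breakdown and transport was read in the same fits, and all 26 were found. The dopamine gate of the synaptic set had 4 higher and 10 lower of 23 tested, where 21.8% of all genes were called. Those with the lowest p were Ddc, which makes dopamine from L-DOPA (1197 against 52.1 CPM, log2 fold change 4.57 ± 0.08 (SE)), Aldh1a1, an aldehyde dehydrogenase with a part in an alternative route to GABA (5.52), the vesicular monoamine transporter Slc18a2 (4.43), the transporter-like Slc10a4 (4.89) and the GABA transaminase Abat, which breaks GABA down (86.5 against 129 CPM, -0.53). The Slc26a7 gate had 2 higher of 23 and none lower (4.83% of all genes called), with Ddc at 1.48 and Slc18a2 at 0.66 on the log2 scale.

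In the Lum gate Abat was higher, at 116, 251, 127 and 239 CPM in the synaptic set against 118, 136, 109.8 and 115 CPM (log2 fold change 0.68 ± 0.14 (SE), adjusted p = 1.43e-04 with edgeR). The gate was above the rest in 3 of 4 libraries and slightly below it in female 1. Maob, a monoamine oxidase, was also higher there (72.5 against 14 CPM, log2 fold change 2.44 ± 0.24 (SE), adjusted p = 1.12e-12). The gate had 3 higher and 4 lower of 23 (17.9% of all genes called), and the Gata3 gate 3 higher and 4 lower of 22 (7.92%), among them Abat (0.47) and the aspartate aminotransferase Got1 (0.45), both higher.

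The gates rich in Slc17a6 had 3 higher and 2 lower of 23 (C1ql1), 4 higher and 8 lower of 23 (Lmx1a) and 3 higher and 5 lower of 23 (Sim1) in the synaptic set, where 7.97%, 20.7% and 7.99% of all genes were called. Maob was lower in the C1ql1 and Sim1 gates, by -1.66 and -1.79 on the log2 scale (edgeR adjusted p = 1.89e-05 and 0.00335). The C1ql1 gate was higher in Slc1a3, a glutamate transporter best known from astrocytes (14.4 against 6.62 CPM, log2 fold change 1.11 ± 0.23 (SE), adjusted p = 0.00278). The oligodendrocyte precursor markers stood at 41.4 to 80.0 CPM in that gate and at 11.3 to 18.7 CPM over all neurons of the set, and their part in the Slc1a3 difference was not tested. The Sim1 gate was higher in the amino acid transporter Slc38a1 (0.41, adjusted p = 0.0107). For Rbfox3 neurons, in the dopamine, Slc26a7, Gata3, Lum, C1ql1, Lmx1a and Sim1 gates, the list had 3, 1, 1, 1, 0, 3 and 0 genes higher and 0, 0, 2, 1, 0, 1 and 4 lower, of 18 to 21 tested, where 6.53%, 0.343%, 2.34%, 5.00%, 3.18%, 6.75% and 2.18% of all genes were called. Against oligodendrocytes 19 of 23 were higher and 4 lower in the synaptic set (78.7% of all genes called), with glutamine synthetase Glul (-5.52), Slc1a3 (-5.65) and the glycine transporter Slc6a9 (-4.31) among those lower in neurons and the glutaminase Gls2 (3.62) and Slc38a1 (4.23) among those higher.

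Between female and male neurons no member was called with edgeR, 0 of 5 tested in the Rbfox3 set (0.197% of all genes were called) and 0 of 7 in the synaptic set (0.0569%). At an unadjusted p under 0.05 there were 3 and 1, and DESeq2 called 0 in both sets. The 3 in the Rbfox3 set were Slc32a1 (86.6 CPM in females and 63.8 CPM in males, log2 difference female minus male 0.43 ± 0.16 (SE)), Gad1 (142 CPM in females and 104 CPM in males, 0.44 ± 0.17) and Slc17a6 (145 CPM in females and 189 CPM in males, -0.39 ± 0.17). The synaptic set gave differences of 0.22 ± 0.11 for Slc32a1, 0.10 ± 0.13 for Gad1 and -0.40 ± 0.19 for Slc17a6, and the 1 gene was Slc17a8 (11.4 CPM in females and 4.77 CPM in males, 1.24 ± 0.38). In the Rbfox3 set female 2 was the library with the lowest Slc17a6. Its synaptic set held 655 Slc17a6 UMIs in 804 nuclei, against 1284 in 966 (female 1), 1422 in 855 (male 1) and 1410 in 1211 (male 2). The Sim1 gate, rich in Slc17a6, held 136, 32, 87 and 169 of these nuclei in library order. The part of this mixture in the sex difference was not tested. Without female 1 the log2 differences in the Rbfox3 set were 0.65 for Gad1 and -0.71 for Slc17a6, with 1 female library left and assumed to vary like the others. Of the 26 further genes, 0 of 21 and 0 of 23 were called in the 2 sets, with 4 and 2 at an unadjusted p under 0.05. A test of whether a gate's difference depended on sex called 0 of 32 gene and gate pairs in the Rbfox3 set and 0 of 43 in the synaptic set, with 4 and 10 at an unadjusted p under 0.05 and 0 by DESeq2 in both. Of all genes tested for it, 0.115% were called in the Lmx1a gate and 0.0326% in the dopamine gate of the Rbfox3 set, 0.138% in the Lum gate, 0.0482% in the C1ql1 gate and 0.00797% in the Lmx1a gate of the synaptic set, and 0 in the other gates.

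For each member the 3 genes most alike over the 9 exclusive groups were listed, among genes of at least 20 CPM, by Pearson correlation of log2(CPM + 1). Of the 21 entries in each set, 1 was the same gene for the same member in both: Nrn1 (neuritin), which followed Slc17a6 with r = 0.982 in the Rbfox3 set and r = 0.960 in the synaptic set, over 9 groups in each. In the synaptic set Cacna2d1 and Adcyap1 also followed Slc17a6 (r = 0.972 and 0.960), and Zfp385d followed Gad1 (r = 0.971). In the Rbfox3 set Meis2 was the gene most like both Gad1 and Slc32a1 (r = 0.961 and 0.950), and Slc32a1 was among the 3 most like Gad2 (r = 0.903). The 9 points of each set share the 4 libraries, and with 7717 and 7699 genes searched such values are a description.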

How the data were processed

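Single-nucleus libraries of the rat VTA (10x 3′ chemistry, per the labels' protocols) were deposited as filtered matrices of raw UMI counts, 1 per library, for 32883 genes. The authors made them with Cell Ranger on rn6, per the submitters' processing notes, and the matrix headers name software version 3.0.2. The labels and headers do not say how strand, multimapping reads or introns were handled. Groups come from the labels' sex; labels name 2 libraries a sex and no batch, and p-values measure the spread between pooled libraries.

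Barcodes with fewer than 200 detected genes, or with mitochondrial UMIs above 5%, were dropped, and Scrublet scores (scanpy 1.11.5) removed the top 0.8% per 1000 barcodes, 980 barcodes in all; the cutoff that Scrublet itself set marked 52 to 203 per library. The 21606 barcodes left 20620 nuclei. Neurons, gates and oligodendrocytes are as stated above. Counts were summed per library and gate and tested with edgeR 4.0.16 (quasi-likelihood, trimmed mean of M-values scaling, filterByExpr, library as block) in R 4.3.3, with Benjamini-Hochberg adjustment over all genes at 0.05. The sex test had no covariate. Shares were computed exactly for 2000 UMIs drawn per nucleus (scipy 1.17.1). Intervals and floors of 3 counts cover counting error only.

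The members, gates and lists were chosen with earlier results of these data known, and the synaptic set after these data were seen. Named genes are the 7 members, the gate genes, up to 5 genes of a list of 26 with the lowest p per gate (another gene of that list is not reported here), and the 3 genes most alike per member. On simulated counts, edgeR recovered 69.4% of genes changed by 1 log2 unit and 98.9% of those changed by 2 in the dopamine gate of the Rbfox3 set (9188 genes), and 12.9% and 64.5% in its Lum gate (8855 genes). The synaptic set gave 89.5% and 100% in the dopamine gate and 59.8% and 88.5% in the Lum gate. False calls were 3.49% and 2.41% of calls in these gates of the Rbfox3 set and 7.77% and 2.56% in the synaptic set. The changed genes had at least 200 UMIs and all genes the same spread, so genes with fewer UMIs are not covered. That spread was a fixed value, not estimated from these libraries, and the simulated libraries differed only in depth. The rates therefore need not hold for these data. Alternatives tried are DESeq2 1.42.0, its size factors, other depth, gate, doublet and filter settings, no block, and each library left out.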

Additional observations from a re-analysis of the deposited data

Results flagged for a closer look

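The level of Gad2 in the dopamine gate of the synaptic set was 233 CPM in male 1, far from the other 3 libraries at 119, 130.0 and 124 CPM. It was the only one of 44 groups of 4 libraries in which 1 library stood this far from the rest, and chance gives about 1 in 20 such groups. Male 1 was also the highest of the 4 in Slc32a1 in that gate (86.7 CPM) and in Slc17a6 (109.5 CPM).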

How the results depend on the processing

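Asking for 2 Rbfox3 UMIs in place of 1 left fewer nuclei, and the members called then numbered 1 in the Gata3 and Lum gates, 2 in the Lmx1a and Sim1 gates, and 0 in the Slc26a7 and C1ql1 gates and in the 3 comparisons between groups. Under it, 4 members stayed above oligodendrocytes in every library, 3 of all 21 pairs lay below the product (9 with 1 UMI), and 1.23% of neurons had GABA and glutamate UMIs together. That share was 0.840% at 1000 UMIs and 10.3% without thinning. In the dopamine gate 5 members were called in the synaptic set (4 by DESeq2) or with no filter on low counts, 1 by DESeq2 in the Rbfox3 set, and 1 to 4 with each library left out. In the Slc26a7 gate 2 were called with single-marker gates at 2 UMIs and 3 in the synaptic set by either tool. In the C1ql1 gate DESeq2 called 2, the fit without a library block 3, and the fits without 1 library 3 to 5. The Lum against Gata3 groups gave 2 in the synaptic set by either tool. The C1ql1 against Sim1 groups gave 5 with Mog and Mobp nuclei left out or with no filter, and as few as 1 without female 1. By sex, leaving out 1 library gave 0 to 2 members called, and for the dependence of a gate's difference on sex 0 to 3, with 1 under no filter. In the synaptic set 5 of all 21 pairs lay above the product. The cause of these differences was not tested. For settings other than the main edgeR fits of the 2 sets, the share of all genes called is not given. A change in the count of members called is therefore not read as particular to the members.

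Log2 fold changes that turned sign were as follows. With gates at 2 UMIs, Slc17a8 in the C1ql1 gate was -0.12, Slc17a6 in the Slc26a7 gate -0.46, Slc17a6 of Lum against Gata3 groups 0.0371 and Gad1 of Slc26a7 against dopamine groups -4.29. With 2 Rbfox3 UMIs, Slc17a6 was -0.18 in the Lmx1a gate and -1.32 in the Slc26a7 gate, Gad1 was 0.33 in the Slc26a7 gate and Gad2 was -0.41 by sex. In the synaptic set Slc17a6 was 0.0389 for C1ql1 against Sim1 groups (0.0036 by DESeq2) and 0.47 for Lum against Gata3 groups (0.49 by DESeq2), and Slc17a8 in the C1ql1 gate was -0.0602 by DESeq2. DESeq2 gave 1.17 for Slc17a6 of Lum against Gata3 groups in the Rbfox3 set, and no filter -0.014 for Slc17a6 in the Slc26a7 gate. With each library left out, Slc17a6 of Lum against Gata3 groups ran from -2.55 to 0.0856 (without male 1) and Slc17a8 in the Slc26a7 gate from -2.42 to 0.12 (without male 1). By sex, Gad2 ran from -0.0755 (without female 2) to 0.55 and Slc17a8 from -0.54 (without female 2; -0.48 without male 2) to 1.29. Of the other single-gene and pair values, 982 stayed the same, 44 lost a call, 30 gained one and 87 moved. A fold change stayed the same if it kept direction and call. A share or co-detection stayed the same if it lay within 1 SD of the main mean, and otherwise moved.

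The replicate numbers 1 and 2 are shared by both sexes, but the labels do not say that they pair libraries. Libraries of the same number had correlations of 0.139 (Rbfox3 set) and 0.261 (synaptic set) of their deviations over genes, from 2 pairs. With the number as a replicate block, 0 members were called by sex in both sets, as without the block.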
